A study of Mus musculus with 10 samples.

Results

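The 37 genes described here belong to 2 linked stress programmes, the amino acid response driven by the transcription factor ATF4 and the unfolded protein response of the endoplasmic reticulum (ER). They were taken by symbol from a list of 9 regulators and effectors, 14 genes of amino acid supply and 14 ER genes, and all 37 were present among the 24043 genes of one deposited table and the 24016 usable genes of the other. The amino acid arm holds 5 enzymes of amino acid synthesis and one-carbon metabolism, 4 transporters and 5 tRNA synthetases. The ER arm holds 10 chaperones and folding enzymes and 4 genes of the XBP1 branch and of ER-associated degradation. All 37 had a mean of at least 1 RPKM (reads scaled to gene length and to library size) in both tables, so each was tested in both.

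The integrated stress response starts when a kinase such as PERK or GCN2 phosphorylates the translation factor eIF2, which lowers protein synthesis as a whole but raises translation of the ATF4 message. ATF4 then switches on genes for making, importing and loading amino acids onto tRNA, as well as DDIT3 (CHOP), TRIB3 and other effectors. The unfolded protein response also acts through PERK, and through IRE1, which splices the XBP1 message, and ATF6, a membrane-bound factor released by proteolysis. These branches raise chaperones, disulfide isomerases and the machinery that removes misfolded proteins from the ER. The prostate epithelium is secretory, and its protein output loads this system. Because ATF4 and XBP1 are controlled largely at translation and splicing, the total level of either message does not report its activity.

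The organoids, 3-dimensional cultures of mouse prostate cancer, were grown from C57BL/6 mice aged 8 weeks, using the dorsal-lateral lobe. Every culture carried a cMYC overexpression construct, floxed EZH2 alleles and an inducible PSA-CreERT2, and grew with the synthetic androgen R1881 at 10 nM. The chemical experiment has 3 libraries of cultures given DMSO and 3 of cultures given DZNep at 1 µM, a compound that blocks S-adenosylhomocysteine hydrolase and lowers the histone methyltransferase EZH2. The genetic experiment has 2 libraries with the ethanol vehicle (EtOH) and 2 with Tamoxifen at 1 µM, the ligand that activates CreERT2, and all cultures were harvested at 3 days. Recombination depends on the PSA promoter, which is active in androgen-responsive luminal cells, and both EtOH and Tamoxifen cultures carried the floxed alleles. The labels leave unsaid whether replicates come from different cultures or mice, so the spread that p-values rest on is that of libraries and may be technical.

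Libraries listed 15021 to 15382 genes above 0, and relative depth, read from the spacing of the lowest values, was lowest in DZNep 2, at 0.757 times that of DMSO 1, and highest in DMSO 3, at 1.16 times. Absolute depth is not known from RPKM. EZH2 was 30.4, 29.8 and 27.1 RPKM in DMSO and 22.5, 24.2 and 24.7 RPKM with DZNep, a log2 change of -0.28 (adjusted p = 0.0142, or 0.0641 without DMSO 2). With EtOH it was 28.0 and 34.0 RPKM and with Tamoxifen 32.0 and 33.2 RPKM, a log2 change of 0.08 (adjusted p = 0.635). A whole-gene value does not check a floxed deletion, since reads from exons outside the deleted part still count. Luminal markers summed to between 1427 and 1612 RPKM in all 10 libraries, with PBSN, a secreted product of mouse prostate, listed at 0 in each. The 4 basal keratin and p63 markers summed to 4898 to 5201 RPKM in DMSO and 6664 to 6937 RPKM with DZNep, and to 5075 to 5470 RPKM in EtOH and 4002 to 4117 RPKM with Tamoxifen. Nearly all of this was KRT5, KRT14 and KRT15, while TRP63 (p63) was 48.2 ± 4.11 RPKM in DMSO and 46.6 ± 1.72 RPKM with DZNep (mean ± SD, n = 3 each). The 10 fibroblast and smooth muscle markers summed to 3.05 to 4.32 RPKM in DMSO and 8.32 to 9.50 RPKM with DZNep, with COL3A1 and DES at 0. This rise was carried by DCN (mean 2.77, then 6.11 RPKM) and ACTA2 (0.692, then 2.62 RPKM). The rest were near 0, and among them COL1A1, PDGFRA and PDGFRB had lower means with DZNep. The 4 plasma cell markers, chosen because such cells hold much ER, summed to 457 to 486 RPKM in DMSO and 440.2 to 445 RPKM with DZNep, nearly all of it SDC1, which epithelium also makes. What part these shifts had in the values that follow was not tested, and in bulk RNA fewer cells of a type cannot be told apart from less RNA per cell.

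The 37 genes covered a wide range of levels. Averaged over the 10 libraries, NUPR1 was highest at 595 RPKM, followed by HSP90B1 at 202 RPKM, ATF4 at 191 RPKM and HSPA5 at 189.7 RPKM. NUPR1 stood at percentile 98.8 of all expressed genes and ATF4 at percentile 96.8. CHAC1 at 2.23 RPKM and TRIB3 at 3.53 RPKM were the lowest, at percentiles 8.88 and 16.1. Several members were thus among the most abundant messages, while the effectors CHAC1 and TRIB3 were near the low end.

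Promoters are shown for 4 members called in at least 1 comparison that hold a binding motif of the pathway, and single sites for TRIB3, which was called with DZNep, and for ASNS, CHAC1 and HSPA5, which were not. In RefSeq's table of promoters (build GRCm38.p6, 250 bases before to 50 bases after each transcript start), 32 of the 37 genes had an entry. There was none for SLC7A5, NARS, WARS, MANF and HYOU1. The C/EBP-ATF composite core, searched as TGATGNAA on both strands (TTNCATCA on the other), is the element to which ATF4 binds with a C/EBP partner. The ER stress response element, the textbook target of ATF6 with NF-Y, was searched as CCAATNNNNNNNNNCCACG on both strands. After the sequences had been read, the shorter ER stress response element II (ATTGG, 1 base of any kind, then CCACG) was searched on both strands too. Below, capitals mark the matched letters, each sequence reads 5′ to 3′ along the gene, and the 4 long ones are the 250 bases that end just before the transcript start. They lie at chr7:126625471-126625720 (minus strand, NUPR1), chr3:50443614-50443863 (minus strand, SLC7A11), chr8:94386179-94386428 (plus strand, HERPUD1) and chr12:17266339-17266588 (plus strand, PDIA6), all in GRCm38.p6, whereas the expression tables were made with mm9.
NUPR1: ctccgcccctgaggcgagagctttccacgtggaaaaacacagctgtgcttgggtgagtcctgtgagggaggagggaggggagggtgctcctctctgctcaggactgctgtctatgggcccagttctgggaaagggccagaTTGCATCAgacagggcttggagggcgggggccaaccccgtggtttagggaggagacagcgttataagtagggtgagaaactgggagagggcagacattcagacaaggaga
SLC7A11: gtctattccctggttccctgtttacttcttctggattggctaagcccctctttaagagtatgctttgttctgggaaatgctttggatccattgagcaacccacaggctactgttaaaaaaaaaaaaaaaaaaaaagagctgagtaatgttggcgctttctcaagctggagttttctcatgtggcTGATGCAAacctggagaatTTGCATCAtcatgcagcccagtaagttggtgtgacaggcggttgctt
HERPUD1: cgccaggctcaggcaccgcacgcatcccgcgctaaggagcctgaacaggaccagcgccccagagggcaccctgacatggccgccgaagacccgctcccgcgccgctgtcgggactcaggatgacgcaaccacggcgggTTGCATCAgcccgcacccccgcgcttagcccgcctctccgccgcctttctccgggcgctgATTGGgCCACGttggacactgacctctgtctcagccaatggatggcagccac
PDIA6: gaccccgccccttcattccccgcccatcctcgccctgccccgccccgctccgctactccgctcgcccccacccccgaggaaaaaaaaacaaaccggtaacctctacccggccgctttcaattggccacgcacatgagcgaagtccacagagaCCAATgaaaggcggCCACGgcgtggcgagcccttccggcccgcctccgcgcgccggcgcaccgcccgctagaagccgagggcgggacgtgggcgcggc
TRIB3 site: tcaggtTTACATCAgccggg
ASNS site: gccacaTGATGAAActtccc
CHAC1 site: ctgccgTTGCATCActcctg
HSPA5 site: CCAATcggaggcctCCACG

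The composite core was found in 8 of the 32 genes with an entry (25.0%) and in 3.97% of all 32851 promoters. Its holders were the effectors TRIB3, CHAC1 and NUPR1, the synthesis enzyme ASNS, the transporter SLC7A11, the synthetases AARS and GARS, and HERPUD1 of the ER arm. SLC7A11 holds 2 matches on opposite strands, at -66 to -59 and -47 to -40 counted from the start, where -1 is the last base before the transcript. In NUPR1 the match lies at -110 to -103, in HERPUD1 at -112 to -105 and in ASNS at -23 to -16, while that of TRIB3 lies inside the transcript at 15 to 22. The ER stress response element was found in 5 of the 32 (15.6%), the chaperones HSPA5, HSP90B1, DNAJC3 and CRELD2 and the isomerase PDIA6, and in 0.119% of all promoters. Its CCACG part alone, which also lies inside the full element, occurred in 26 of 32 members and 32.8% of all promoters. Element II was found in HERPUD1 alone among the 32, at -52 to -42, and in 0.0365% of all promoters. A match is a run of letters and not a measured site, and these genes were listed because they are known targets of such factors.

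**Figure D1:**
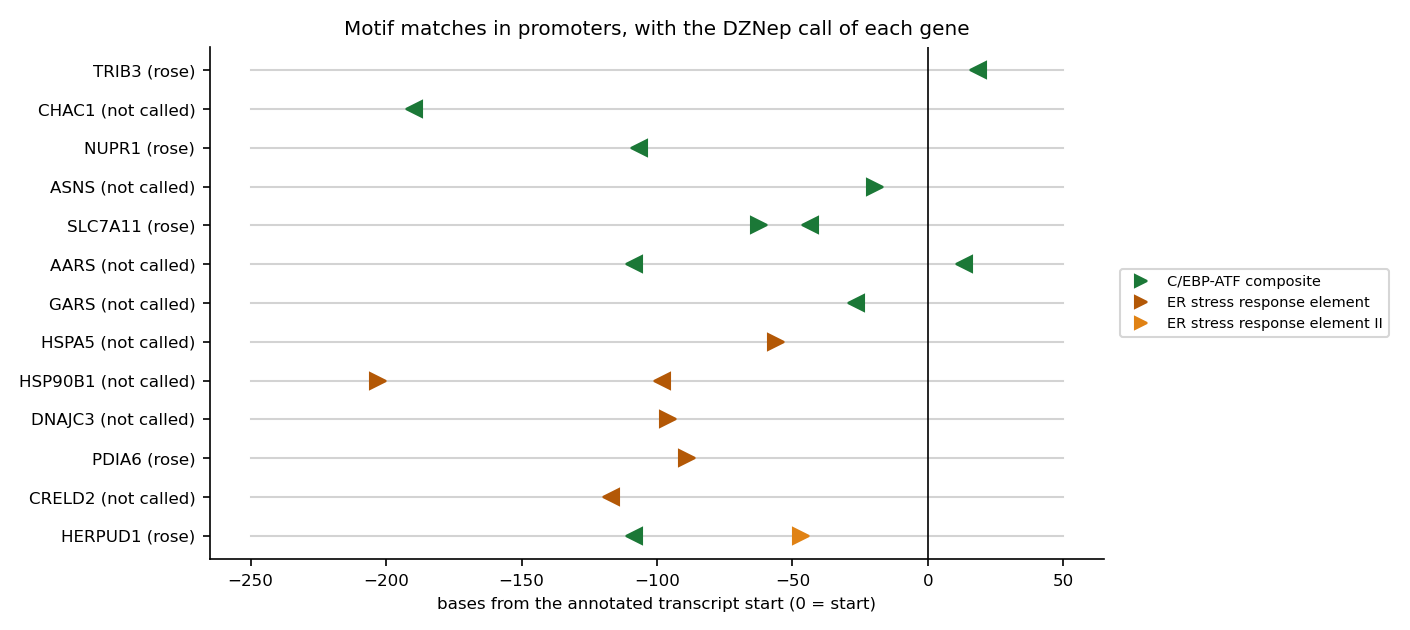
Positions of the full motif matches in the 13 members that hold one, in bases from the annotated transcript start (x axis). Triangles point right for matches on the gene's strand and left for the other strand, colours mark the motif, and the word after each symbol is the DZNep call. Of the 8 genes with a composite core, 4 rose with DZNep, and of the 5 with the longer ER stress response element, 1 rose.

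The chemical comparison asked how the 37 genes stood with DZNep against DMSO. Of the 37, 9 rose and 3 fell (32.4% called), where 27.7% of all 11143 genes tested were called with 16.6% rising and 11.1% falling. The share of members called was thus near that of the transcriptome. Calls rest on an adjusted p under 0.05 in limma over all genes, and log2 changes are on the log2(RPKM + 1) scale, which understates changes of weakly expressed genes. The median change of the 37 was 0.09, against 0.01 over all genes, with 26 members above 0 and 11 below. In 16 members all DZNep libraries lay above all DMSO libraries, and in 6 all lay below, where this held for 26.1% and 19.4% of all genes (45.5% without overlap in either direction). The genes that rose were NUPR1, TRIB3, SLC7A11, SLC3A2, WARS, PDIA4, PDIA6, SDF2L1 and HERPUD1, and those that fell were PSAT1, HYOU1 and EDEM1. The count of called members was 12 with all libraries but 4 without DMSO 2, 6 without DZNep 2 and 7 without DMSO 3. It was 10 under quantile normalization, with 6 rising and 4 falling.

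**Figure D2:**
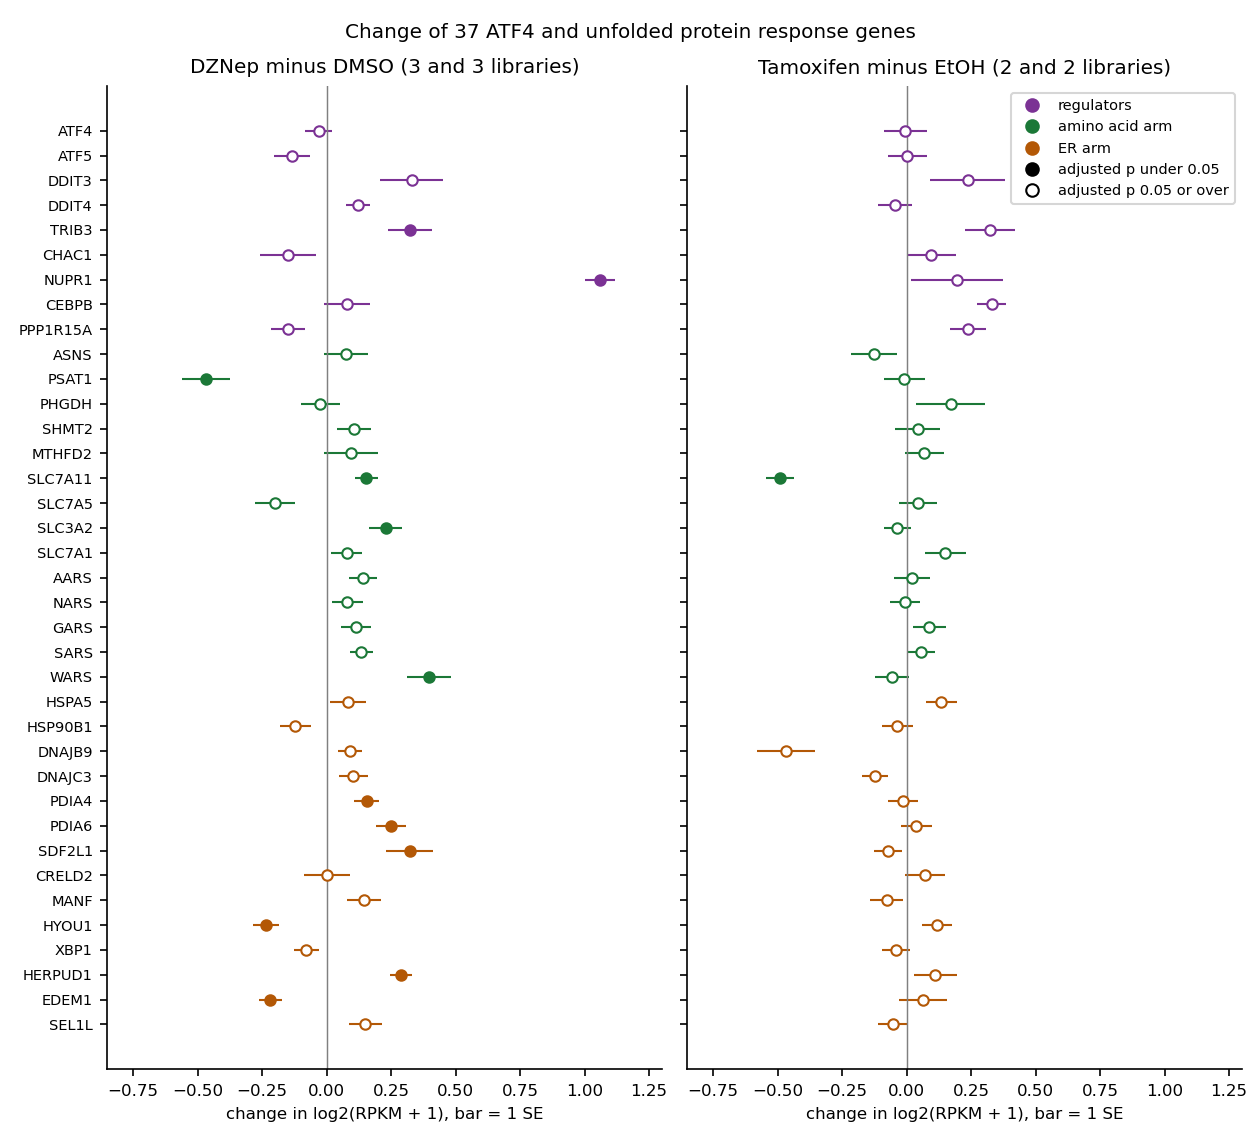
Change in log2(RPKM + 1) of each of the 37 genes with DZNep (left) and with Tamoxifen (right), with bars of 1 SE. Filled points have an adjusted p under 0.05, and colours separate regulators, the amino acid arm and the ER arm. NUPR1 stands at 1.06 with DZNep, the other 11 called genes lie between -0.47 and 0.40, and with Tamoxifen the single filled point is SLC7A11 at -0.49.

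Among the 9 regulators and effectors, 2 rose and 0 fell with DZNep (22.2% called, beside 27.7% of all genes tested). NUPR1, a small chromatin-associated stress protein induced downstream of ATF4, was 459.7, 459.9 and 442 RPKM in DMSO and 929.6, 1002 and 909 RPKM with DZNep. All 3 treated libraries were far above the controls, at 2.09 times the control mean. Its log2 change was 1.06 (SE 0.06, adjusted p = 2.54e-05), and the call held in all 15 alternatives, with changes from 1.02 to 1.14. Its promoter, printed above, holds 1 composite core. TRIB3, a pseudokinase that binds AKT and ATF4, was 3.00, 3.17 and 3.02 RPKM in DMSO and 4.69, 4.07 and 3.54 RPKM with DZNep. The groups did not overlap, although the DZNep libraries were spread more widely than the controls. Its log2 change was 0.32 (SE 0.08, adjusted p = 0.0255). Without DMSO 2, DMSO 3, DZNep 1 or DZNep 2 the adjusted p of TRIB3 was 0.0678, 0.0652, 0.0534 or 0.0733. Its call was lost in 6 of 14 alternatives, also without a filter and with a replicate block.

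The central factors of the response gave no call with DZNep. ATF4 itself was 205, 203 and 192 RPKM in DMSO and 195, 203 and 189.7 RPKM with DZNep, and the groups overlapped (log2 change -0.03, SE 0.05, adjusted p = 0.690). DDIT3, the CHOP factor linked to cell death under prolonged stress, was 16.3, 16.4 and 15.8 RPKM in DMSO and 22.6, 23.6 and 16.2 RPKM with DZNep. In 2 DZNep libraries it was well above DMSO, while DZNep 3 sat among the controls (log2 change 0.33, adjusted p = 0.0816). Without DZNep 3 the log2 change of DDIT3 was 0.49 with an adjusted p of 0.00214, so this library decides the call. DDIT4, an inhibitor of mTORC1, was 110.2, 115 and 114 RPKM in DMSO and 123, 126 and 119 RPKM with DZNep, with no overlap and an adjusted p of 0.0896. PPP1R15A (GADD34), which directs the phosphatase that restores eIF2, had a log2 change of -0.15 with all treated libraries below the controls (adjusted p = 0.130). ATF5, a related factor also under translational control, had a log2 change of -0.14 (adjusted p = 0.183). CHAC1, which breaks down glutathione and is a sensitive ATF4 target, had -0.15 (adjusted p = 0.329). CEBPB, a C/EBP partner of ATF4, had 0.08 (adjusted p = 0.541).

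In the amino acid arm, 3 of 14 genes rose and 1 fell with DZNep (28.6% called, beside 27.7% of all genes tested). The median change was 0.10. The 5 synthesis enzymes held the largest fall of the 37. PSAT1, the phosphoserine aminotransferase of serine synthesis, was 81.5, 69.6 and 63.3 RPKM in DMSO and 49.5, 49.1 and 55.0 RPKM with DZNep. Every treated library was below every control, with the mean lower by 28.3%, and the controls themselves were widely spread. Its log2 change was -0.47 (SE 0.09, adjusted p = 0.00972), and the call held in all 15 alternatives. PHGDH, the enzyme one step upstream of PSAT1, overlapped between groups at 32.8 ± 3.37 and 32.1 ± 1.32 RPKM (mean ± SD, n = 3 each; log2 change -0.02, adjusted p = 0.833). ASNS, which makes asparagine and is a classic ATF4 target, was 31.7, 29.5 and 24.8 RPKM in DMSO and 30.1, 29.3 and 30.8 RPKM with DZNep. Its groups overlapped as well (log2 change 0.07, adjusted p = 0.539). The mitochondrial one-carbon enzymes SHMT2 and MTHFD2 had log2 changes of 0.10 and 0.09, neither called (adjusted p = 0.267 and 0.526).

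Of the 4 transporters, 2 rose with DZNep (50% called, beside 27.7% of all genes tested). SLC7A11, the cystine-glutamate exchanger that feeds glutathione synthesis, was 30.6, 31.1 and 30.5 RPKM in DMSO and 33.8, 33.7 and 35.4 RPKM with DZNep. The groups were apart but the step was small, 11.7% of the control mean (log2 change 0.15, SE 0.04, adjusted p = 0.0350). SLC3A2, the heavy chain that pairs with SLC7A11 and SLC7A5 at the membrane, was 127, 119 and 119 RPKM in DMSO and 148, 149.6 and 131 RPKM with DZNep. All treated libraries were above the controls, DZNep 3 by the least (log2 change 0.23, SE 0.06, adjusted p = 0.0330). SLC7A5, the large neutral amino acid carrier, went the other way, from 38.5, 41.1 and 40.4 to 38.1, 35.6 and 30.7 RPKM. Its groups did not overlap but it gave no call (log2 change -0.20, adjusted p = 0.0898), and without DZNep 1 it was called at -0.27 (adjusted p = 0.0415). SLC7A1, which imports arginine and lysine, had a log2 change of 0.08 (adjusted p = 0.353). The call of SLC7A11 was lost without any 1 of the 6 libraries, with adjusted p between 0.0556 (without DMSO 1) and 0.106 (without DMSO 2), and under trimmed mean scaling (0.0531). That of SLC3A2 was lost without DMSO 2, DMSO 3, DZNep 1 or DZNep 2 (adjusted p = 0.120, 0.0850, 0.0859 and 0.125). Both calls were also lost under quantile normalization and with a replicate block, and that of SLC3A2 without a filter.

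All 5 tRNA synthetases had a change above 0 with DZNep, also under quantile normalization and trimmed mean scaling. Of them, 1 passed the test (20% called, beside 27.7% of all genes tested). WARS, which charges tryptophan and is known to be induced by interferon as well as by ATF4, was 23.8, 21.5 and 19.1 RPKM in DMSO and 27.6, 30.9 and 27.1 RPKM with DZNep. The lowest treated library exceeded the highest control, and the mean was 33.0% higher (log2 change 0.40, SE 0.09, adjusted p = 0.0128). The call of WARS held in all 15 alternatives. SARS, AARS, GARS and NARS, for serine, alanine, glycine and asparagine, had log2 changes of 0.13, 0.14, 0.11 and 0.08, with adjusted p of 0.0603, 0.0951, 0.171 and 0.354. The groups did not overlap in SARS, AARS and GARS and did in NARS.

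**Figure D3:**
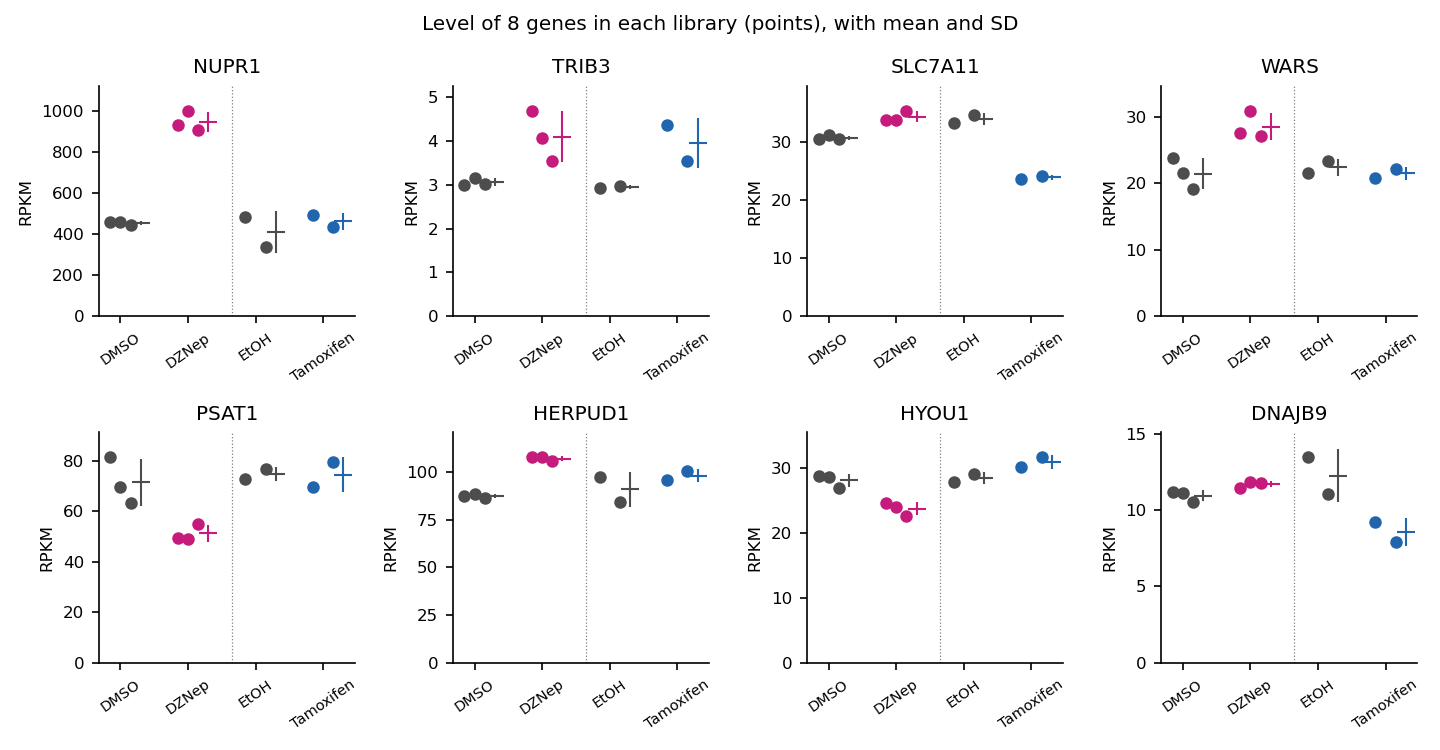
RPKM of 8 genes in each of the 10 libraries (points), with mean and SD beside each group, axes starting at 0 and a dotted line between the chemical and the genetic experiment. NUPR1 lies between 909 and 1002 RPKM with DZNep and between 337 and 492 RPKM in every other library, SLC7A11 is near 24 RPKM with Tamoxifen, and PSAT1 is lowest with DZNep.

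In the ER arm, 4 of 14 genes rose and 2 fell with DZNep (42.9% called, beside 27.7% of all genes tested). The median change of 0.10 was the same as that of the amino acid arm at this rounding. HERPUD1, an ER membrane protein of the degradation complex, was 87.6, 88.2 and 86.4 RPKM in DMSO and 108, 108 and 106 RPKM with DZNep. Replicates were tight and the groups well apart (log2 change 0.29, SE 0.04, adjusted p = 0.00300), and the call held in all 15 alternatives. Its promoter holds both a composite core and element II. EDEM1, which extracts misfolded glycoproteins for degradation, moved oppositely, from 8.28, 8.82 and 8.42 to 7.20, 7.17 and 7.14 RPKM (log2 change -0.22, SE 0.05, adjusted p = 0.0120, or 0.0659 without DMSO 2). SEL1L, the adaptor of the degradation ligase, had all DZNep libraries above the controls and no call (log2 change 0.15, adjusted p = 0.107). XBP1, whose table value does not separate spliced from unspliced message, was 44.4 ± 1.28 RPKM in DMSO and 42.0 ± 1.52 RPKM with DZNep (n = 3 each; log2 change -0.08, adjusted p = 0.257).

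Among the 10 chaperones and folding enzymes, 3 rose and 1 fell (40% called, beside 27.7% of all genes tested). PDIA6, a protein disulfide isomerase that also dampens IRE1, was 86.6, 84.8 and 80.5 RPKM in DMSO and 93.7, 104 and 102 RPKM with DZNep. The groups were apart, with DZNep 1 closest to the controls (log2 change 0.25, SE 0.06, adjusted p = 0.0167). SDF2L1, a cofactor of the HSPA5 chaperone cycle, went from 15.2, 14.7 and 11.9 to 16.4, 18.4 and 18.0 RPKM (log2 change 0.32, SE 0.09, adjusted p = 0.0338). PDIA4, another disulfide isomerase, went from 61.6, 61.5 and 59.0 to 65.3, 67.7 and 70.0 RPKM (log2 change 0.16, SE 0.05, adjusted p = 0.0461). Both had all treated libraries above the controls. HYOU1, the large chaperone that exchanges nucleotide for HSPA5, fell from 28.7, 28.5 and 26.9 to 24.6, 23.9 and 22.6 RPKM, again with no overlap (log2 change -0.24, SE 0.05, adjusted p = 0.0141, or 0.0659 without DMSO 2). The call of PDIA6 was lost without DMSO 2 or DZNep 2 (adjusted p = 0.0614 and 0.0736). SDF2L1 was not called without DMSO 2, DMSO 3, DZNep 2 or DZNep 3 (adjusted p = 0.0641, 0.0561, 0.109 and 0.0924). PDIA4 lost its call without any 1 of the 6 libraries (adjusted p from 0.0508 without DMSO 1 to 0.138 without DZNep 2). It lost its call in 11 of 15 alternatives, also with a filter of 5 RPKM, both scalings, untrended variances and a replicate block. SDF2L1 was also not called without a filter, and neither SDF2L1 nor PDIA6 was called with a replicate block.

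The most abundant ER chaperones gave no call. HSPA5 (BiP), the chaperone that holds the stress sensors inactive, was 181, 185 and 166 RPKM in DMSO and 173, 197 and 194 RPKM with DZNep, overlapping between groups (log2 change 0.08, SE 0.07, adjusted p = 0.400). HSP90B1 (GRP94), the ER form of HSP90, was 211, 211 and 199 RPKM in DMSO and 177, 196 and 198 RPKM with DZNep. All treated libraries were below the controls, by a small margin (log2 change -0.12, adjusted p = 0.167, or 0.0256 under quantile normalization). The HSPA5 cofactors DNAJB9 and DNAJC3 had log2 changes of 0.09 and 0.10 (adjusted p = 0.180 and 0.206), both without overlap. MANF, a secreted ER stress protein, and CRELD2, an ER protein with isomerase activity, overlapped between groups, at 0.15 and 0.00 (adjusted p = 0.131 and 0.997). Of the 5 genes with the ER stress response element, PDIA6 rose and HSPA5, HSP90B1, DNAJC3 and CRELD2 gave no call.

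The rising members were set beside their promoters. Of the 8 genes with a composite core, NUPR1, TRIB3, SLC7A11 and HERPUD1 rose and 0 fell, while 4 rose and 2 fell among the 24 without it. Over all tested genes with an entry, 38 of 206 with the core rose (18.4%) and 25 fell, and 17.0% of the 8168 without it rose. Over the whole table, genes with the core thus rose at nearly the rate of genes without it. ASNS, CHAC1, AARS and GARS hold the core and did not pass the test.

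Levels were also summed over each group in every library. The regulators came to 823 to 860 RPKM in DMSO and 1290 to 1416 RPKM with DZNep, most of which was NUPR1. The synthetases came to 237 to 262 RPKM in DMSO and 270.2 to 284 RPKM with DZNep, the transporters to 205 to 211 and 214.0 to 237 RPKM, and the degradation group to 154 to 158 and 169 to 176 RPKM, each without overlap. Chaperones ran from 638 to 691 RPKM in DMSO and from 653 to 721 RPKM with DZNep and overlapped, as did the synthesis enzymes at 178 to 222 and 182 to 190.1 RPKM. The transporter shift was carried by SLC3A2 (mean 122, then 143 RPKM) and that of the degradation group by HERPUD1 (87.4, then 107 RPKM). In these groups SLC7A11, SLC7A1 and SEL1L had higher means with DZNep, and SLC7A5, XBP1 and EDEM1 lower ones. DMSO 3 was the lowest of the DMSO libraries in all 5 groups of the 2 arms.

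**Figure D4:**
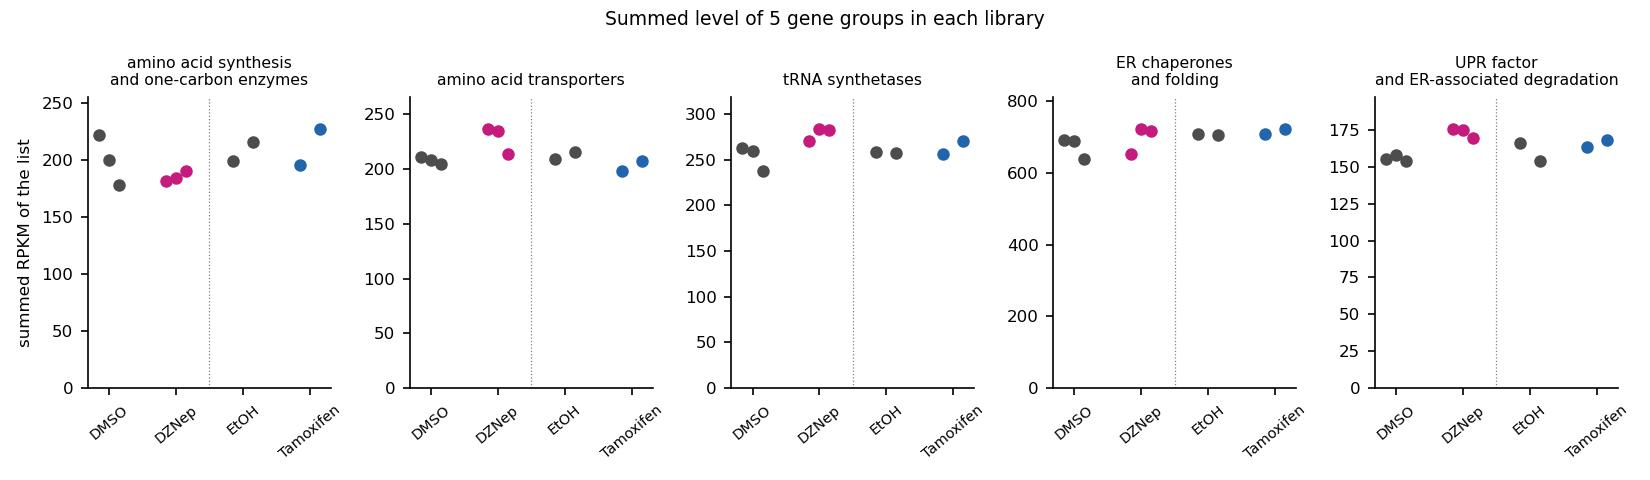
Summed RPKM of the 5 groups of the amino acid and ER arms in each library (points), with axes starting at 0 and a dotted line between the experiments. Synthetases, transporters and the degradation group lie higher with DZNep than in DMSO in every library, whereas synthesis enzymes and chaperones overlap, and in the genetic experiment the 5 groups differ little.

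The genetic comparison asked the same of Tamoxifen against EtOH. Of the 37, 0 rose and 1 fell (2.70% called), where 2.07% of all 11123 genes tested were called, with 0.692% rising and 1.38% falling. At an unadjusted p under 0.05 there were 5 of the 37 members and 2831 of the 11123 genes tested, so the share was lower among members. In the joint fit of all 10 libraries 2 members were called. The median change was 0.04, the same as over all genes at this rounding. With 2 libraries a group, 36.6% of all genes had both treated libraries above the controls and 23.2% both below (59.9% without overlap), and of the 37 members 8 and 6 did so. The amino acid arm had a median of 0.03 and the ER arm one of -0.02. Trimmed mean scaling turned the amino acid median to -0.0027.

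SLC7A11 was the member that fell. It was 33.2 and 34.7 RPKM in EtOH and 23.6 and 24.2 RPKM with Tamoxifen. Replicates of each group were close together and the treated mean was lower by 29.7%. The log2 change was -0.49 (SE 0.05, adjusted p = 0.0319), against 0.15 with DZNep. Without Tamoxifen 1 or Tamoxifen 2, where the lone treated library is assumed to vary like the others, its adjusted p was 0.167 or 0.228, and the value was -0.47 or -0.51. Its partner SLC3A2 was 119 and 119 RPKM in EtOH and 115 and 118 RPKM with Tamoxifen (log2 change -0.04, adjusted p = 0.696).

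Among the ER chaperones, DNAJB9, a cofactor that recruits HSPA5 to IRE1, had nearly the same size of change as SLC7A11 without passing the test. It was 13.5 and 11.1 RPKM in EtOH and 9.22 and 7.94 RPKM with Tamoxifen, with both treated libraries below both controls (log2 change -0.47, SE 0.11, adjusted p = 0.0973). The EtOH libraries were far apart, and without EtOH 2 it was called (-0.60, adjusted p = 0.0403). HSPA5 was 186 and 195 RPKM in EtOH and 208 and 211 RPKM with Tamoxifen (log2 change 0.14, adjusted p = 0.225). HERPUD1 and XBP1 had log2 changes of 0.11 and -0.04 (adjusted p = 0.429 and 0.647).

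The regulators with the larger values under Tamoxifen were CEBPB, TRIB3, PPP1R15A and DDIT3, and none was called. CEBPB was 14.2 and 15.1 RPKM in EtOH and 18.8 and 18.5 RPKM with Tamoxifen, without overlap (log2 change 0.33, SE 0.06, adjusted p = 0.0572, or 0.0396 without EtOH 2). TRIB3 was 2.92 and 2.98 RPKM in EtOH and 4.36 and 3.54 RPKM with Tamoxifen (log2 change 0.32, SE 0.10, adjusted p = 0.133). PPP1R15A went from 18.0 and 16.4 to 19.7 and 21.2 RPKM (log2 change 0.24, adjusted p = 0.127). DDIT3 overlapped, at 17.8 and 14.0 RPKM in EtOH and 21.1 and 16.8 RPKM with Tamoxifen (adjusted p = 0.348). NUPR1 was 483 and 337 RPKM in EtOH and 492 and 434 RPKM with Tamoxifen, overlapping because of the spread of the EtOH pair (log2 change 0.20, SE 0.18, adjusted p = 0.507, with -0.06 for the change without EtOH 2). ATF4 was 191 and 171 RPKM in EtOH and 173 and 187 RPKM with Tamoxifen (log2 change -0.00, adjusted p = 0.978). The synthesis enzyme PSAT1 was 73.0 and 76.8 RPKM in EtOH and 69.7 and 79.4 RPKM with Tamoxifen. The synthetase WARS was 21.5 and 23.3 RPKM in EtOH and 20.8 and 22.2 RPKM with Tamoxifen, and both genes overlapped between groups.

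Whether DZNep and Tamoxifen acted differently was tested as the difference of the 2 log2 changes in a single fit, each change taken within its own table. Of the 37, 4 differed upward, with the DZNep change above the Tamoxifen change, and 2 downward (16.2% called), where 19.4% of all 11155 genes were called, 10.6% upward and 8.79% downward. SLC7A11 had the clearest difference, 0.64 (SE 0.06, adjusted p = 3.40e-04), which held in all 18 alternatives. It rose with DZNep and fell with Tamoxifen, and every treated library lay on that side of its controls. NUPR1 differed by 0.86 (SE 0.18, adjusted p = 0.0109, or 0.0578 without Tamoxifen 2). DNAJB9 differed by 0.56 (adjusted p = 0.0104, or 0.0542 without Tamoxifen 2) and WARS by 0.46 (adjusted p = 0.0337).

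HYOU1 and PPP1R15A were the members with a lower change under DZNep. HYOU1 fell with DZNep and was 28.4 ± 0.898 RPKM in EtOH and 30.8 ± 1.10 RPKM with Tamoxifen (mean ± SD, n = 2 each, no overlap), so that its effects differed by -0.35 (SE 0.08, adjusted p = 0.0135). PPP1R15A differed by -0.39 (SE 0.10, adjusted p = 0.0294). Without Tamoxifen 2 the adjusted p was 0.0680 for HYOU1, 0.123 for PPP1R15A and 0.0786 for WARS, and SLC7A11 was then the 1 member still called. WARS was also not called without DMSO 2, DZNep 2, EtOH 1, EtOH 2 or Tamoxifen 1 (adjusted p = 0.0667, 0.0687, 0.0579, 0.0953 and 0.114). PPP1R15A lost its call without EtOH 2 or Tamoxifen 1 (0.0876 and 0.0553), and HYOU1 without EtOH 1 (0.0501). TRIB3 had a difference of 0.00 (SE 0.14, adjusted p = 0.995), with a log2 change of 0.32 in each experiment. PSAT1 missed the threshold at -0.46 (SE 0.14, adjusted p = 0.0508), and without DMSO 3 it was called (adjusted p = 0.0250).

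**Figure D5:**
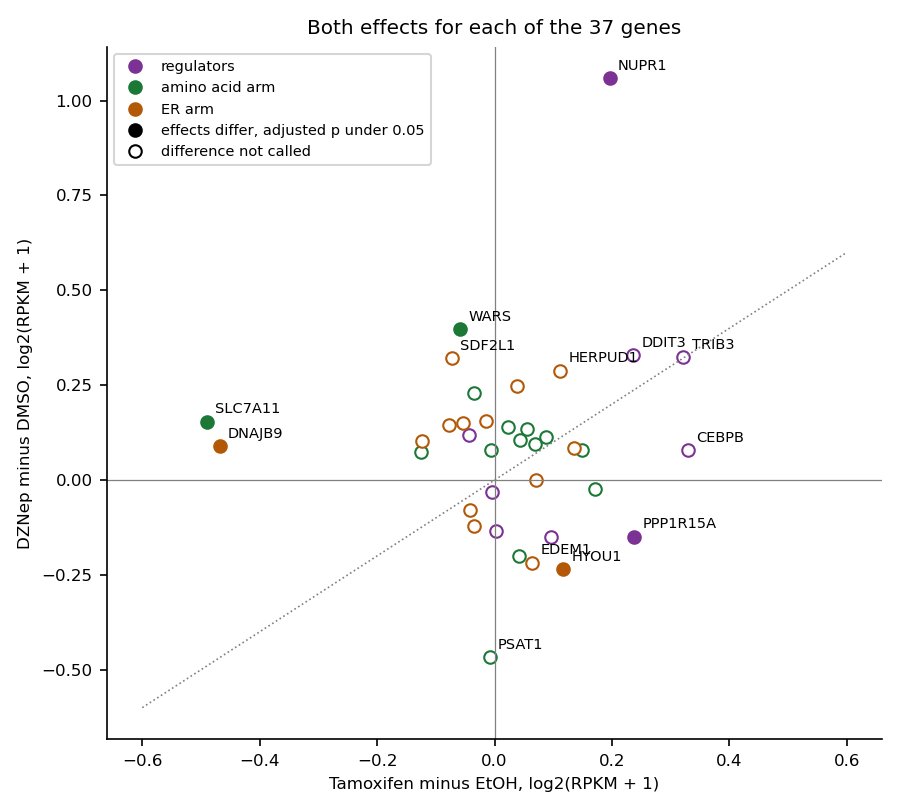
Change of each of the 37 genes with Tamoxifen (x axis) against its change with DZNep (y axis), both in log2(RPKM + 1), with equal changes on the dotted line. Filled points are the 6 genes whose difference passed the test, with NUPR1, SLC7A11, WARS and DNAJB9 above the line and HYOU1 and PPP1R15A below it, and TRIB3 lies on the line at 0.32 in both.

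The amino acid arm and the ER arm were set side by side, with no test between them. With DZNep, 4 and 6 of 14 genes were called and the medians were 0.099 and 0.096. With Tamoxifen the medians were 0.032 and -0.025, with 1 and 0 genes called. For the difference, 2 genes of each arm were called (14.3%, beside 19.4% of all genes tested), and the medians were 0.070 and 0.17. The spread of library median levels within groups (SD, log2 scale) was 0.030 for the amino acid arm and 0.073 for the ER arm in the chemical experiment. This SD is of levels and not of changes, so it is only a rough measure for the gap between medians of changes. The gap between the DZNep medians was smaller than either SD. In the genetic experiment the SDs were 0.11 and 0.017, and the gap between the Tamoxifen medians lay between these values. For the difference of effects the gap between the medians was larger than both SDs of the chemical experiment. It was also larger than the SD of the ER arm in the genetic experiment and smaller than that of the amino acid arm there. Being SDs of levels, they cannot decide whether the arms differ. Both arms held genes that rose and genes that fell with DZNep, so a median describes neither well.

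Other genes of the pathway were listed by their known roles. Of 77, 72 passed the filter, and with DZNep 15 rose and 5 fell (27.8%, nearly the 27.7% of all genes tested). Of the 16 stress sensors and eIF2 control genes, 5 rose and 0 fell (31.2% called). EIF2B2, a subunit of the exchange factor that reloads eIF2, went from 34.7, 32.8 and 31.4 to 46.9, 48.4 and 45.5 RPKM (log2 change 0.50, adjusted p = 7.26e-04). EIF2AK2 (PKR), the eIF2 kinase that senses double-stranded RNA and is itself interferon-inducible, went from 9.49, 10.2 and 10.5 to 14.5, 13.8 and 14.9 RPKM (log2 change 0.48, adjusted p = 9.43e-04). Both had well separated groups. With Tamoxifen, EIF2B2 was 31.5 and 31.4, then 31.0 and 30.9 RPKM, and its 2 effects differed by 0.52 (adjusted p = 0.00202).

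Of 18 further ATF4 targets tested, 2 rose and 2 fell with DZNep (22.2% called, beside 27.7% of all genes tested). ATF3, a stress-induced factor of the ATF family, was 14.5, 12.8 and 11.2 RPKM in DMSO and 7.48, 7.31 and 6.07 RPKM with DZNep. In the genetic experiment it was 6.45 and 7.73 RPKM in EtOH and 13.0 and 18.3 RPKM with Tamoxifen. All libraries of a treatment lay on the same side of their controls, in opposite directions, with log2 changes of -0.80 (adjusted p = 0.00155) and 1.03 (adjusted p = 0.0526) and a difference of -1.82 (SE 0.21, adjusted p = 6.55e-04) that held in all 18 alternatives. The Tamoxifen value of ATF3 was called in 9 of 13 alternatives, among them those without EtOH 2 or Tamoxifen 1 (adjusted p = 0.0416 and 0.0423). GDF15, a stress-induced cytokine that is also a p53 target, was the gene of the wider lists called with Tamoxifen, from 11.6 and 10.6 to 19.5 and 21.7 RPKM. Its log2 change was 0.84 (adjusted p = 0.0263, or 0.0518 and 0.115 without Tamoxifen 1 and 2), beside 0.63 with DZNep. XPOT, the exporter of tRNA, had 0.19 with DZNep (adjusted p = 0.0246, from 0.0591 to 0.0768 without DMSO 2, DMSO 3, DZNep 1 or DZNep 3). The neutral amino acid carrier SLC1A4 had -0.24 (adjusted p = 0.00772) and a difference of -0.37 between experiments (adjusted p = 0.00384).

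Of the 15 other cytosolic synthetases, 4 rose and 1 fell with DZNep (33.3% called, beside 27.7% of all genes tested). EPRS, for glutamate and proline, had a log2 change of 0.29 (adjusted p = 0.0113) and HARS, for histidine, 0.23 (adjusted p = 0.0341), while QARS, for glutamine, had -0.16 (adjusted p = 0.0364). HARS lost its call without DMSO 2, DMSO 3, DZNep 2 or DZNep 3 (adjusted p from 0.0793 to 0.112) and QARS without any 1 of the 6 libraries (0.0575 to 0.112). Of the 23 other ER genes tested, 4 rose and 2 fell (26.1% called, near the share of all genes tested). The lectin OS9 (0.26, adjusted p = 0.00816) and the reductase DNAJC10 (0.27, adjusted p = 0.0106), both of ER-associated degradation, rose. The degradation ligase SYVN1 (-0.28, adjusted p = 0.0131, or 0.0593 without DMSO 2) and the vesicle coat gene SEC24D (-0.22, adjusted p = 0.0182) fell. SEC24D was not called without DMSO 2, DMSO 3 or DZNep 2 (adjusted p = 0.0784, 0.0558 and 0.0565). DERL1 (0.17, adjusted p = 0.0256) and EDEM2 (0.19, adjusted p = 0.0422) also rose. Genes of degradation thus moved in both directions with DZNep, HERPUD1, OS9, DNAJC10, DERL1 and EDEM2 upward and EDEM1 and SYVN1 downward.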

How the data were processed

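The submitters' processing notes name bcl2fastq 2.18, STAR, Cufflinks and build mm9. Other settings of these tools are not given in the sources used here. Per the labels, mRNA libraries that keep strand were prepared from 500 ng of RNA. The authors deposited log2 values of RPKM, 1 table per experiment, whose floor is 0, so they were read as log2(RPKM + 1). Whether both were scaled as a set is not known here, so no level was tested between them. For the genetic experiment, 2 rows without a symbol and 27 whose symbols read as dates were dropped. The members and lists were chosen with earlier results of these data known.

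Testing was done in limma 3.58.1 under R 4.3.3, two-sided, with variances moderated along the mean, on genes averaging 1 RPKM or more. Residual degrees of freedom were 4 for DZNep, 2 for Tamoxifen and 6 for their difference. Benjamini-Hochberg adjustment covered all genes tested, and the threshold was 0.05. Permuting the EZH2 values exactly (two-sided) gave p = 0.1 with DZNep and p = 1 with Tamoxifen, where the smallest values possible are 0.1 and 0.333. Relative depth is the most common ratio of low values, held by 37.9% to 44.5% of 578 to 713 genes a library. All members were named, and from each wider list the 2 called genes of smallest p in each direction were picked. A few other called genes of these lists are given by value only and were not followed through the alternatives. Percentages of change come from mean RPKM. The fits were tested on simulated data. Each choice was varied alone: pseudocount (0.1), filter (none, or 5 RPKM), scaling (quantile, or trimmed mean), variance model (untrended, or robust), replicate block, joint fit, and each library left out. Promoter motifs were counted in RefSeq sequences (GRCm38.p6) with Python 3.11.15, and figures were drawn with matplotlib 3.10.9.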

Additional observations from a re-analysis of the deposited data

Results flagged for a closer look

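Among the 37 members and the other pathway genes picked by smallest p within an experiment, the DZNep and Tamoxifen effects differed in 11. Each was called by a test of the difference itself in limma (log2 scale, DZNep effect minus Tamoxifen effect). Among the 37 members these were SLC7A11 (0.64, adjusted p = 3.40e-04), DNAJB9 (0.56, 0.0104), NUPR1 (0.86, 0.0109), HYOU1 (-0.35, 0.0135), PPP1R15A (-0.39, 0.0294) and WARS (0.46, 0.0337). Among the picked other pathway genes they were ATF3 (-1.82, adjusted p = 6.55e-04), EIF2B2 (0.52, 0.00202), SLC1A4 (-0.37, 0.00384), OS9 (0.36, 0.0176) and DNAJC10 (0.26, 0.0424). Of all 72 other pathway genes tested 8 differed (11.1%), and of the members 16.2%, beside 19.4% of all genes tested. EIF2AK1 (0.37, adjusted p = 0.00524), GPT2 (0.36, 0.0188) and PCK2 (-0.36, 0.0374) also differed and had not been picked. OS9 was not called without EtOH 1 or Tamoxifen 2 (adjusted p = 0.0570 and 0.0767), and DNAJC10 was called only without DMSO 2 or DZNep 1 among the 10 runs that left out a library (0.0606 to 0.128 in the other 8). The basal marker sum moved in opposite directions in the 2 experiments, and its part in these differences was not tested.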

How the results depend on the processing

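The calls of NUPR1, HERPUD1, PSAT1 and WARS with DZNep, and the difference of SLC7A11, kept their direction and side of the threshold in every alternative run. The number of members called with DZNep was 12, 5 with a replicate block, and 4 to 10 when 1 library was left out. Deviations of libraries from their group means were correlated between control and treated libraries. Same-numbered ones gave 0.0591, 0.0590 and -0.0675 in the chemical experiment, and differently numbered ones ran from -0.146 to 0.0945. In the genetic experiment the values were 0.0400 and -0.0400, a single value with its sign turned, since 2 deviations from a mean mirror each other. The numbers were not taken as pairs. With Tamoxifen 1 member was called, 0 without a filter, 2 with a filter of 5 RPKM, with robust variances or in the joint fit, 3 with a replicate block, and 0 to 3 when 1 library was left out. For the difference the count was 6, and 1 to 8 with 1 library left out. With 1 library left out, the amino acid arm's median ran from 0.0499 to 0.146 with DZNep and from -0.0431 to 0.0904 with Tamoxifen, and the ER arm's from -0.0345 to -0.00468 with Tamoxifen, where trimmed mean scaling gave -0.0602. The causes were not tested.

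Direction changed in 13 of the values that were varied, none of them called, with sizes from near 0 to 0.20 (NUPR1 with Tamoxifen). For Tamoxifen and for the difference, only part of the named genes were varied. These were members called in any comparison, picked other genes called there, EZH2 and CEBPB. The remaining members, such as ATF4 at -0.0047 with Tamoxifen, were not varied there. CRELD2 with DZNep became -0.0255 and -0.0208 under quantile normalization and trimmed mean scaling, DNAJC10 with Tamoxifen -0.00559 and -0.0307, and the TRIB3 difference -0.00116 with a pseudocount of 0.1 and -0.00975 under quantile normalization. With 1 library left out, DZNep values ran from -0.0242 to 0.148 for ASNS, -0.0110 to 0.176 for CEBPB, -0.0765 to 0.0704 for CRELD2, -0.0198 to 0.164 for MTHFD2 and -0.0967 to 0.0477 for PHGDH. Tamoxifen values ran from -0.0286 to 0.0372 for DNAJC10, -0.0598 to 0.188 for EDEM1, -0.0578 to 0.214 for EZH2, -0.0633 to 0.455 for NUPR1, -0.0539 to 0.0261 for PDIA4, -0.00640 to 0.0819 for PDIA6 and -0.101 to 0.0842 for PSAT1, and the TRIB3 difference from -0.118 to 0.121. In a shorter promoter window 7 members held the composite core and 5 the ER stress response element. Absolute depth is unknown, so no detection limit is given, and 2 libraries a group limit the Tamoxifen test.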
